A study of Mus musculus and Rattus norvegicus with 6 samples.

Results

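The genes described here build the extracellular matrix around smooth muscle cells apart from the fibrillar collagens themselves: fibronectin, the elastic fibre, the lysyl oxidases that cross-link it, adhesive and matricellular proteins, small leucine-rich proteoglycans, the basement membrane, and a few enzymes and a chaperone that act on collagen. The set holds 43 genes, chosen by symbol, of the 55573 genes in the count table, and all 43 symbols were found once. The bulk RNA-seq holds 4 libraries of cultured mouse SMCs: 2 were transfected with a negative control siRNA (siCo), and in the other 2 YAP and TAZ were both knocked down by siRNA (siYAP/TAZ). The sample labels give the cells as wild-type MOVAS, an established mouse aortic smooth muscle line, whereas the figure legends of the study speak of primary penile SMCs. Nothing but the siRNA differs between the groups in the labels, and which of the siRNA mixes in the study was sequenced is not given in its text or labels. Nor do they say whether the libraries of a group were separate cultures. The p-values therefore rest only on the spread between these libraries, taken mostly from the trend over genes, and that spread may be technical. The numbers 1 and 2 of the siYAP/TAZ libraries follow the order of their columns and name no sample.

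Elastic fibres are made of a core of cross-linked elastin on a scaffold of fibrillin microfibrils, and fibulins and emilins join core and scaffold during assembly. Lysyl oxidases oxidise lysine side chains of elastin and collagen, which then form the covalent cross-links that give arteries and erectile tissue their recoil and stiffness. Small leucine-rich proteoglycans coat collagen fibrils and bind growth factors, and the basement membrane is a sheet of laminin, nidogen, perlecan and type IV collagen that surrounds each smooth muscle cell. YAP and TAZ are transcriptional coactivators that respond to mechanical load and reach DNA through TEAD factors, and several matrix genes are known targets of theirs in other cells.

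The knockdown was measured first. Yap1 stood at 21.9 and 23.5 FPKM in the siCo libraries and at 1.87 and 2.03 FPKM in the siYAP/TAZ libraries, and Wwtr1, which encodes TAZ, at 56.5 and 59.1 against 16.8 and 17.7 FPKM. FPKM is the count per kilobase of exon scaled to the total count of the library, so genes can be set side by side only roughly. A single exonic length was used for each gene, whichever of its transcripts the cells made. The libraries held 17192309 to 18751368 counts. Of smooth muscle markers, Acta2 was well expressed, at 138 and 142 FPKM in siCo cells, whereas Myh11 was at 1.29 FPKM in both siCo libraries and Myocd at 0.178 FPKM or less in all 4 libraries. The endothelial gene Cdh5 stood at 41.7 to 45.8 FPKM, and the macrophage genes Adgre1, Tyrobp, C1qa and C1qb had no count in any library.

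After YAP/TAZ knockdown more of the matrix genes were higher than lower, and the lower ones ranged from Lox, among the most abundant, to Ogn, which was hardly expressed. Of the 43 genes, 41 passed the filter on low counts, and of these 23 were higher in siYAP/TAZ cells, 8 were lower and 10 did not pass the threshold (edgeR's quasi-likelihood test with Benjamini-Hochberg adjustment over all 15479 genes tested, threshold 0.05). Among all genes tested, 27.6% were higher and 27.7% lower, against 56.1% and 19.5% of the 41 matrix genes. The matrix genes were chosen with earlier results of these data known, so these shares are a description only. The median log2 fold change was 0.28 over the matrix genes and -0.000329 over all genes. Values of the groups did not overlap for 35 of the 41, and for 77.2% of all genes tested. Of the 31 called genes 7 changed by at least 2-fold, or 22.6%, near the 18.6% of all called genes. Eln and Ogn are among these 7. Like Mfap4, they reached the count minimum in both libraries only in the group where they were high, and all are included in the counts above. The lower calls of Fbln2, Ogn and Hspg2 rest in part on a single library. Without siYAP/TAZ library 2 their log2 fold changes were -0.14, -0.84 and -0.07, against -0.25, -1.33 and -0.15 with all libraries. In bulk RNA, fewer cells of a type and less RNA per cell cannot be told apart.

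**Figure D1:**
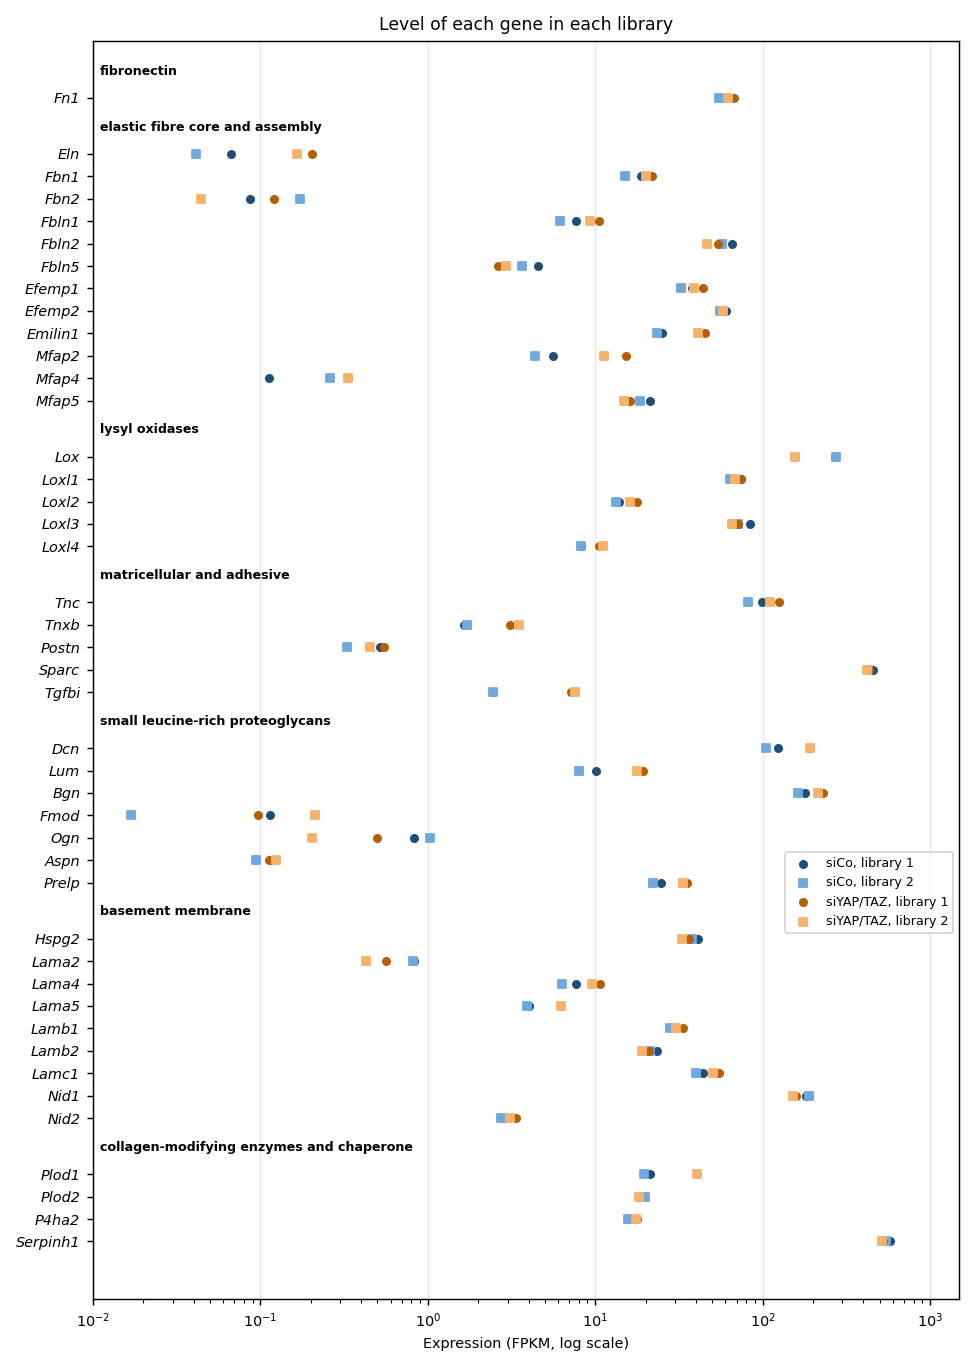
Expression of the 43 genes in each of the 4 libraries, in FPKM on a log scale, grouped by role. Circles are library 1 and squares library 2 of each group, blue for siCo and orange for siYAP/TAZ. Levels run from under 1 FPKM in every library, for 7 genes, to between 515 and 581 FPKM for Serpinh1.

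Expression levels spanned a wide range. The highest in siCo cells was Serpinh1, at a mean of 563 FPKM ± 25.8 (SD, n = 2), followed by Sparc, Lox, Nid1, Bgn and Dcn. In siYAP/TAZ cells Serpinh1 and Sparc were still ranks 1 and 2, but Lox went from rank 3 to rank 5 and Nid1 from rank 4 to rank 6, while Bgn and Dcn took ranks 3 and 4. Not all neighbours in this order differed beyond their spread. Nid1 and Bgn were at 186 FPKM ± 7.14 and 172 FPKM ± 12.5 (SD, n = 2) in siCo cells, while in siYAP/TAZ cells Lox and Nid1 were at 156 FPKM ± 0.474 and 155 FPKM ± 4.21 (SD, n = 2). In all, 13 of the genes had a mean over 50 FPKM in at least 1 group. At the other end, Eln, Fbn2, Mfap4, Postn, Fmod, Aspn and Lama2 stayed under 1 FPKM in every library.

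YAP and TAZ have no DNA-binding domain of their own, so the stretch before each gene's start was searched for the TEAD motif GGAATG and for the AP-1 motif TGANTCA, each on both strands. RefSeq windows of 250 bases upstream of a start on GRCm38.p6 were found for 28 of the 43 genes, 35 windows in all. GGAATG or its reverse complement was in 3 of these windows, or 8.57%, against 12.6% of the 32851 windows of all genes. TGANTCA was in 2 windows, or 5.71%, against 6.75% of all windows. No window held both motifs, so no match overlapped another. The windows with a match are printed because they belong to genes whose values are described below, with the match in capitals. Those with the TEAD motif lie before Mfap2 (chr4:141010174-141010423, plus strand), Nid1 (chr13:13437352-13437601, plus strand) and Ogn (chr13:49607765-49608014, plus strand), and those with the AP-1 motif before Tnxb (chr17:34670285-34670534, plus strand) and Efemp1 (chr11:28852955-28853204, plus strand).
Mfap2: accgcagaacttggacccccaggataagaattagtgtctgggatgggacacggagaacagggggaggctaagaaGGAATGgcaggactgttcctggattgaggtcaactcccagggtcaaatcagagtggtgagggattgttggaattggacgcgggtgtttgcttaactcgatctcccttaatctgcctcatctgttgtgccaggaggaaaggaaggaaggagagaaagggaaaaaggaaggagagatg
Nid1: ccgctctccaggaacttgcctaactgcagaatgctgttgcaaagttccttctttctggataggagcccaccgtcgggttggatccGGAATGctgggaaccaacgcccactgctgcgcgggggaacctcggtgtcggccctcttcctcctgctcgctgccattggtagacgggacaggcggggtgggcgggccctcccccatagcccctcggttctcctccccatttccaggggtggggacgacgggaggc
Ogn: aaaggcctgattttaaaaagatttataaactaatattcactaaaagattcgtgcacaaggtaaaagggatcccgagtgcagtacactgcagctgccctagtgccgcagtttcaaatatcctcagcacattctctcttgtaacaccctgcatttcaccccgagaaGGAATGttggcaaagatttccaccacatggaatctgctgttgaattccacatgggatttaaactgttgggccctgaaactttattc
Tnxb: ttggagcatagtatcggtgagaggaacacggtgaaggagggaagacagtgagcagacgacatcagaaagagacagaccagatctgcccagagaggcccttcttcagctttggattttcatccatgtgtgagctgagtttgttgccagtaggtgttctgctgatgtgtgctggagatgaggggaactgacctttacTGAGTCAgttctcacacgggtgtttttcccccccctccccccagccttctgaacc
Efemp1: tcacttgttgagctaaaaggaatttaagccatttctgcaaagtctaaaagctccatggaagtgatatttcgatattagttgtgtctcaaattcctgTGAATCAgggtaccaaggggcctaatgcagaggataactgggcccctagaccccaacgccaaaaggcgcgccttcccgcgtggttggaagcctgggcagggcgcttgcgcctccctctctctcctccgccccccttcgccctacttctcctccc
The first base of the match lay 176 bases before the RefSeq start in Mfap2, 165 in Nid1, 86 in Ogn, 55 in Tnxb and 154 in Efemp1. Of these 5 genes, Mfap2, Tnxb and Efemp1 were higher and Nid1 and Ogn were lower in siYAP/TAZ cells, so windows with a TEAD motif lay before genes of both directions. A match is only a description of these letters, and binding was not measured.

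Fibronectin, encoded by Fn1 on the minus strand of chromosome 1 (71585520 to 71653200 on mm10), is the provisional scaffold on which fibrillin, collagen and fibulins are laid down. Its expression was 57.9 and 55.3 FPKM in siCo cells and 67.3 and 61.9 FPKM in siYAP/TAZ cells. Both siYAP/TAZ libraries lay above both siCo libraries, by a log2 fold change of 0.24 (SE 0.0445, edgeR adjusted p = 0.00012).

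Among the elastic fibre genes Eln, Fbn1, Fbln1, Efemp1, Emilin1 and Mfap2 rose, and Fbln2, Fbln5 and Mfap5 fell. Of the 12 genes, 6 were higher, 3 lower and 3 not called, with a median log2 fold change of 0.31. The 25% lower is near the 27.7% of all genes tested, and 50% were higher against 27.6%. Mfap2, which encodes the microfibril-associated glycoprotein MAGP-1, had the largest change among those above 1 FPKM. It rose from 5.61 and 4.35 FPKM to 15.3 and 11.2 FPKM, so that the lower siYAP/TAZ library still exceeded the higher siCo library (log2 fold change 1.46, SE 0.16, edgeR adjusted p = 9.84e-08). Its relative Mfap5, encoding MAGP-2, went the other way, from 21.2 and 18.6 FPKM to 16.1 and 14.9 FPKM (log2 fold change -0.32, SE 0.0666, edgeR adjusted p = 0.000333). Within each library the ratio of Mfap2 to Mfap5 was therefore 0.264 and 0.234 in siCo cells and 0.95 and 0.756 in siYAP/TAZ cells, and the groups did not overlap. Mfap4, an elastin- and fibrillin-binding glycoprotein, had only 4, 9, 12 and 11 counts across the siCo and siYAP/TAZ libraries, and no difference was detectable at this depth. It shares 4.6% of its exonic bases with Mapk7 on the opposite strand, which had 948 to 1081 counts.

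Emilin1 encodes a glycoprotein found where elastin meets the microfibrils. It stood at 25.1 and 23.3 FPKM in siCo cells and at 45.6 and 41.2 FPKM in siYAP/TAZ cells, with a wide gap between the groups (log2 fold change 0.89, SE 0.0527, edgeR adjusted p = 6.008e-12). Fbn1, the main fibrillin of adult microfibrils, was at 18.9 and 15 FPKM in siCo cells and at 21.8 and 20 FPKM in siYAP/TAZ cells. The groups did not overlap, but the gap between the siCo libraries was wider than that between siCo library 1 and the siYAP/TAZ libraries (log2 fold change 0.35, SE 0.069, edgeR adjusted p = 0.0002121). Without siCo library 1 the Fbn1 change was 0.52, without siCo library 2 it was 0.19, and with DESeq2 its adjusted p was 0.1092. Of its exonic bases 20.1% are shared with Gm9913 on the opposite strand, which had 19 to 62 counts. Fbn2, the fibrillin of developing tissue, had 21 and 41 counts in siCo libraries and 30 and 10 in siYAP/TAZ libraries. These overlapped, and its log2 fold change of -0.58 (SE 0.434) turned on single libraries, from -1.49 without siYAP/TAZ library 1 (edgeR adjusted p = 0.03971) and -0.99 without siCo library 1 (0.04273) to 0.0028 without siCo library 2.

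Among the fibulins, Fbln1 and Efemp1 rose, Fbln2 and Fbln5 fell, and Efemp2 was not called. Fbln1 encodes fibulin-1, which binds fibronectin and elastin, and it went from 7.68 and 6.14 FPKM to 10.6 and 9.38 FPKM (log2 fold change 0.57, SE 0.0904, edgeR adjusted p = 1.365e-05). Fbln5, whose protein carries elastin to microfibrils and cells, went from 4.55 and 3.67 FPKM to 2.64 and 2.95 FPKM, with all siYAP/TAZ values below all siCo values (log2 fold change -0.51, SE 0.103, edgeR adjusted p = 0.000228). Fbln2, a fibulin of vessel walls, was more abundant than both, at 65.7 and 57.5 FPKM in siCo cells and 53.9 and 46.4 FPKM in siYAP/TAZ cells. Its log2 fold change was -0.25 (SE 0.0603, edgeR adjusted p = 0.001251), which became -0.14 without siYAP/TAZ library 2, with an adjusted p of 0.1167, and -0.15 without siCo library 1. Efemp1, encoding fibulin-3, went from 38.1 and 32.7 FPKM to 44.1 and 39.2 FPKM, its 4 values lying near each other across a narrow gap (log2 fold change 0.28, SE 0.0678, edgeR adjusted p = 0.001418, and 0.18 without siCo library 2). Efemp2, encoding fibulin-4, which brings lysyl oxidase to elastin, was at 60.8 and 55.8 FPKM against 58.1 FPKM in both siYAP/TAZ libraries, within the spread of the siCo libraries, and the sign of its change of 0.04 (SE 0.0466) turned without siCo library 2.

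Eln, which encodes elastin itself, was hardly expressed. Its siCo libraries held 10 and 6 counts, or 0.0671 and 0.0411 FPKM, whereas 31 and 23 counts, or 0.204 and 0.165 FPKM, were found after knockdown. Its fitted log2 fold change was the largest of the set, 1.80 (SE 0.448, edgeR adjusted p = 0.001744). It reached the count minimum of 10 in both libraries of siYAP/TAZ cells only, so that it could enter the test only by being high there, as did Mfap4. On the log2(FPKM + 1) scale the same change was 0.17 and did not pass the threshold with limma (adjusted p = 0.0603).

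**Figure D2:**
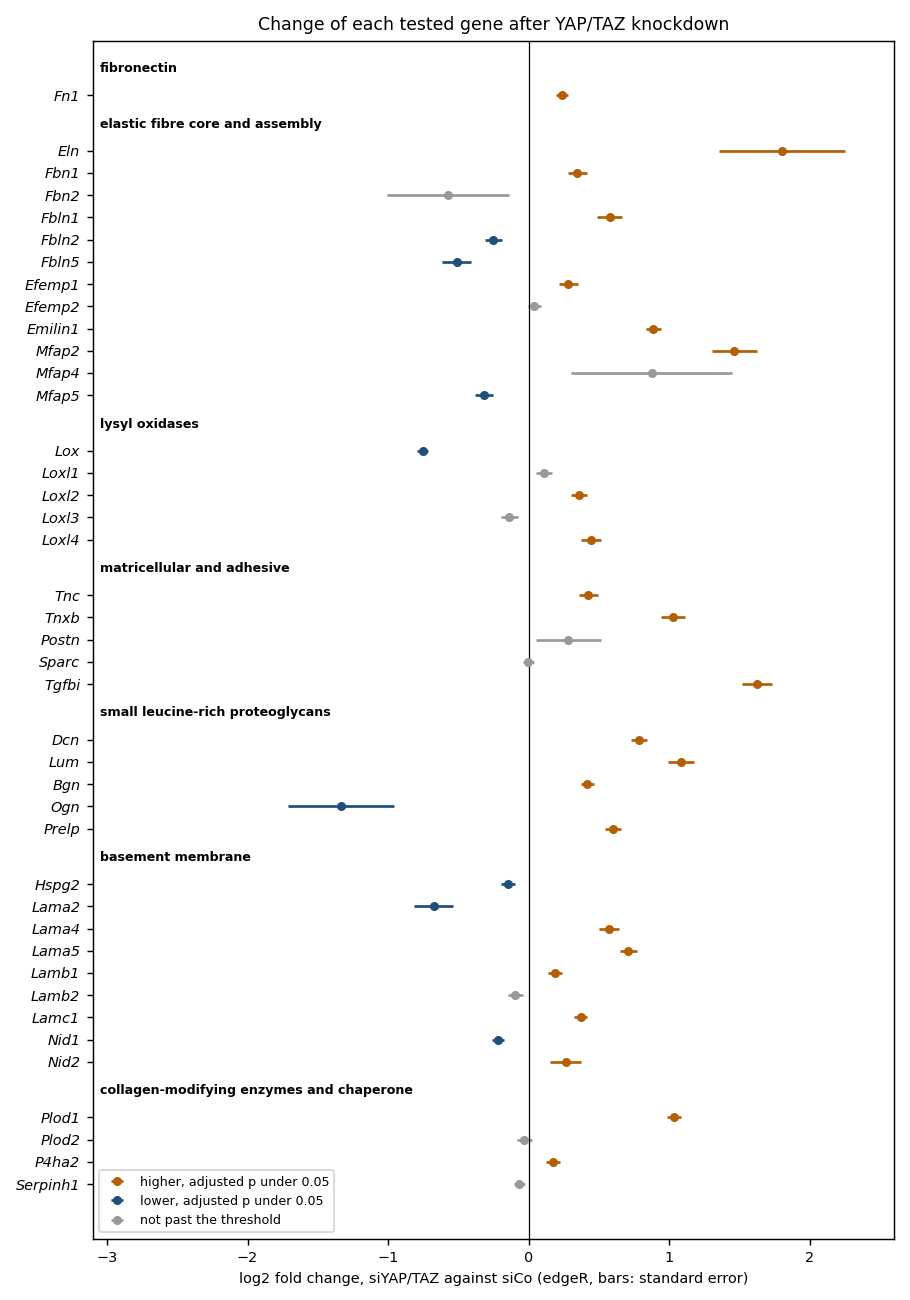
Log2 fold change of the 41 tested genes in siYAP/TAZ against siCo cells from edgeR, with bars for the standard error, grouped by role. Orange genes passed the threshold as higher, blue as lower and grey did not pass. Changes run from -1.33 for Ogn to 1.80 for Eln, and the widest bars belong to the genes with the fewest counts.

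The lysyl oxidases split, with the founding member falling and 2 of its relatives rising. Of the 5 genes, 40% were higher and 20% lower, against 27.6% and 27.7% of all genes tested. In a group of 5 these shares say little. Lox was among the most abundant transcripts of the set and was by far the highest of its family. It stood at 269.9 and 273.8 FPKM in siCo cells and at 156.5 and 155.8 FPKM in siYAP/TAZ cells. Replicates were within a few FPKM of each other and the groups were far apart (log2 fold change -0.76, SE 0.039, edgeR adjusted p = 6.118e-13). The value kept its sign and its call under every one of the 11 alternatives, between -0.80 and -0.74. Lox lies on the minus strand of chromosome 18 (52516067 to 52529867 on mm10).

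Loxl2, which acts on type IV collagen, rose from 14 and 13.4 FPKM to 17.7 and 16.2 FPKM (log2 fold change 0.36, SE 0.0564, edgeR adjusted p = 1.496e-05). Loxl4 rose from 8.28 and 8.21 FPKM to 10.6 and 11.2 FPKM (log2 fold change 0.44, SE 0.0704, edgeR adjusted p = 1.5e-05). In both genes the siYAP/TAZ values were all above the siCo values, and the ratio of Loxl2 to Loxl4 overlapped between the groups. Loxl1, the oxidase that acts on elastin, was at 74.1 and 63.5 FPKM against 74.9 and 68.6 FPKM, and Loxl3 at 84.2 and 71 FPKM against 71.2 and 65.4 FPKM. Neither passed the threshold, and the groups overlapped for both (log2 fold changes 0.11, SE 0.0575, and -0.14, SE 0.0591). These calls were not stable: Loxl1 passed as higher without siCo library 1 (0.22), and Loxl3 passed as lower without siCo library 2 (-0.25) or siYAP/TAZ library 1 (-0.20), with no filter on low counts (edgeR adjusted p = 0.002829) and with library totals (0.01294). Reads of Loxl3 share 11.6% of its exonic bases with Htra2 on the opposite strand, and whether the counting used strand is not stated.

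Taken as a sum of FPKM, the lysyl oxidases went from 450.5 and 429.9 to 330.9 and 317.3 FPKM, a ratio of 0.736 with a spread of 0.0327 from the SDs of both groups (n = 2). The sum was lower although 2 of the 5 genes rose, and Lox held more of it than the other genes together in siCo cells. The ratio of Lox to Loxl1 went from 3.64 and 4.31 to 2.09 and 2.27.

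The matricellular and adhesive genes rose or stayed, and none of the 5 was lower. Over all genes tested 27.7% were lower, so in a group of 5 this says little. Tgfbi, a secreted adhesion protein named for its induction by TGF-beta, rose from 2.46 and 2.44 FPKM to 7.13 and 7.54 FPKM (log2 fold change 1.62, SE 0.104, edgeR adjusted p = 2.073e-11). Tnxb, encoding tenascin-X, which binds collagen fibrils, rose from 1.64 and 1.71 FPKM to 3.09 and 3.53 FPKM (log2 fold change 1.03, SE 0.0852, edgeR adjusted p = 1.335e-09), and its upstream window is one of those with an AP-1 motif shown above. Tnc, encoding tenascin-C, the tenascin of remodelling vessels, was far more abundant and rose less, from 99.9 and 82 FPKM to 126 and 111 FPKM (log2 fold change 0.42, SE 0.0646, edgeR adjusted p = 8.918e-06). In these 3 genes every siYAP/TAZ value exceeded every siCo value.

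Sparc, which binds collagen in and outside the cell, was the second most abundant gene of the set, at 458 and 426 FPKM in siCo cells and at 434 and 421 FPKM in siYAP/TAZ cells. The groups overlapped, and its log2 fold change of -0.003 (SE 0.0413) changed sign when siCo library 1 or siYAP/TAZ library 2 was left out. Postn, encoding periostin, a matricellular relative of Tgfbi, was at 0.518 and 0.331 FPKM against 0.545 and 0.455 FPKM. Its change of 0.28 (SE 0.23) was within the spread between libraries, and it passed only without siCo library 1 (0.64, edgeR adjusted p = 0.03473). The ratio of Postn to Tgfbi went from 0.21 and 0.136 to 0.0765 and 0.0603.

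Of the 7 small leucine-rich proteoglycans 4 were higher, Ogn was lower, and Fmod and Aspn had too few counts to be tested. Of the 5 tested, 80% were higher against 27.6% of all genes tested, and 20% were lower against 27.7%. In a group of 5 these shares say little. Dcn, encoding decorin, which binds collagen fibrils and TGF-beta, stood at 124 and 105 FPKM in siCo cells and at 191 and 192 FPKM in siYAP/TAZ cells (log2 fold change 0.78, SE 0.0544, edgeR adjusted p = 7.522e-11). Lum, encoding lumican, rose from 10.1 and 7.97 FPKM to 19.4 and 17.7 FPKM (log2 fold change 1.08, SE 0.0923, edgeR adjusted p = 2.018e-09). Bgn, encoding biglycan, the closest relative of decorin, rose from 180.5 and 163 FPKM to 229 and 216 FPKM (log2 fold change 0.42, SE 0.0463, edgeR adjusted p = 1.141e-07). Prelp, a proteoglycan that also binds perlecan, rose from 24.8 and 22.3 FPKM to 35.5 and 33.6 FPKM (log2 fold change 0.60, SE 0.0551, edgeR adjusted p = 6.942e-09). The groups were apart in each of the 4 genes, as in 77.2% of all genes tested, and each kept its call under all 11 alternatives. The sum over the 7 genes went from 340.9 and 299.1 FPKM to 475.3 and 459.3 FPKM, a ratio of 1.46 with a spread of 0.139 from the SDs of both groups (n = 2).

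Ogn encodes osteoglycin, a small proteoglycan that regulates collagen fibril growth. It had 39 and 48 counts in siCo libraries, or 0.825 and 1.04 FPKM, and 24 and 9 counts in siYAP/TAZ libraries, or 0.499 and 0.204 FPKM. The groups did not overlap, but the siYAP/TAZ libraries differed from each other by more than 2-fold (log2 fold change -1.33, SE 0.375, edgeR adjusted p = 0.004646). Without siYAP/TAZ library 2 the change was -0.84 with an adjusted p of 0.1119, without siYAP/TAZ library 1 it was -2.13, and it reached the count minimum in both libraries of siCo cells only. Its upstream window has the TEAD motif nearest to a start among those shown.

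Apart from Bgn, which lies on chromosome X, these proteoglycan genes sit in clusters, and the chromosome neighbours did not share a common level. On chromosome 10, Dcn (97479609 to 97518143 on mm10) lies 47.0 kb before Lum, and both rose, while the next genes, Kera and Epyc, had at most 2 counts in any library. On chromosome 13, Ogn (49608046 to 49624501) lies 15.2 kb beyond Omd, which had no count, and Aspn, encoding asporin, had 4 or 5 counts in each library. On chromosome 1, Prelp (133910304 to 133921414) lies 2.3 kb from Optc and 115.8 kb from Fmod. Fmod, encoding fibromodulin, had 7, 1, 6 and 12 counts across the siCo and siYAP/TAZ libraries, so that Prelp was the only gene of its cluster above 1 FPKM. Fmod and Aspn were not tested, and a difference in either was not detectable at this depth.

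Of the basement membrane genes, the laminin alpha chains Lama4 and Lama5 rose and Lama2 fell, while Nid1 and Hspg2, whose products hold the layer together, fell slightly. In all, 5 of 9 were higher, 3 lower and 1 not called. The 33.3% lower is near the 27.7% of all genes tested, and 55.6% were higher against 27.6%. Lama4, the laminin alpha chain of vessel walls, rose from 7.74 and 6.32 FPKM to 10.7 and 9.55 FPKM (log2 fold change 0.57, SE 0.0702, edgeR adjusted p = 5.283e-07). Lama5, the alpha chain of laminin-511, rose from 4.01 and 3.9 FPKM to 6.29 and 6.25 FPKM (log2 fold change 0.71, SE 0.06, edgeR adjusted p = 1.82e-09). Lama2, the alpha chain of muscle laminin, was lower, at 0.831 and 0.811 FPKM against 0.565 and 0.427 FPKM (log2 fold change -0.68, SE 0.141, edgeR adjusted p = 0.0003323). No alpha chain overlapped between the groups, and Lama4 was 9.31 and 7.79 times Lama2 in siCo libraries but 18.9 and 22.4 times in siYAP/TAZ libraries.

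The beta and gamma chains, which every laminin trimer needs, moved less. Lamc1 rose from 44.1 and 40.2 FPKM to 54.7 and 50.8 FPKM (log2 fold change 0.37, SE 0.0484, edgeR adjusted p = 1.286e-06). Lamb1 went from 30.1 and 27.9 FPKM to 33.5 and 30.6 FPKM, with a narrow gap between the groups (log2 fold change 0.19, SE 0.0487, edgeR adjusted p = 0.00266). Without siYAP/TAZ library 1 the change of Lamb1 was 0.12 with an adjusted p of 0.1139. Lamb2, the beta chain found in vascular laminins, was at 23.3 and 21.1 FPKM against 21.1 and 19.2 FPKM and did not pass the threshold (log2 fold change -0.10, SE 0.0551). It passed as lower without siCo library 2 (-0.16) or siYAP/TAZ library 1 (-0.16).

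Nid1, encoding nidogen-1, which links laminin to type IV collagen, was the most abundant basement membrane gene. It stood at 181 and 191 FPKM in siCo cells and at 158 and 152 FPKM in siYAP/TAZ cells, clearly apart although by little (log2 fold change -0.22, SE 0.0413, edgeR adjusted p = 0.0001109). Its upstream window is one of those with a TEAD motif. Hspg2, encoding perlecan, the large heparan sulphate proteoglycan of this layer, was at 41.3 and 37.9 FPKM against 36.4 and 32.8 FPKM (log2 fold change -0.15, SE 0.0495, edgeR adjusted p = 0.01458). The Hspg2 change was -0.07 without siYAP/TAZ library 2 and -0.09 without siCo library 1, with adjusted p of 0.4183 and 0.05182. Nid2, encoding nidogen-2, was at 2.87 and 2.73 FPKM against 3.39 and 3.11 FPKM. It passed the threshold narrowly (log2 fold change 0.26, SE 0.108, edgeR adjusted p = 0.04427) and kept its call in only 3 of the 11 alternatives. Its adjusted p was 0.2687 with DESeq2 and 0.07101 with edgeR and no filter. With limma on log2(FPKM + 1) and log2(FPKM + 0.1) it was 0.1362 and 0.1401. The log2 fold change was 0.29 without siCo library 1, 0.23 without siCo library 2 and 0.20 without siYAP/TAZ library 1. Nid2 also shares 8.4% of its exonic bases with Rtraf on the opposite strand, which had 1893 to 2123 counts.

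**Figure D3:**
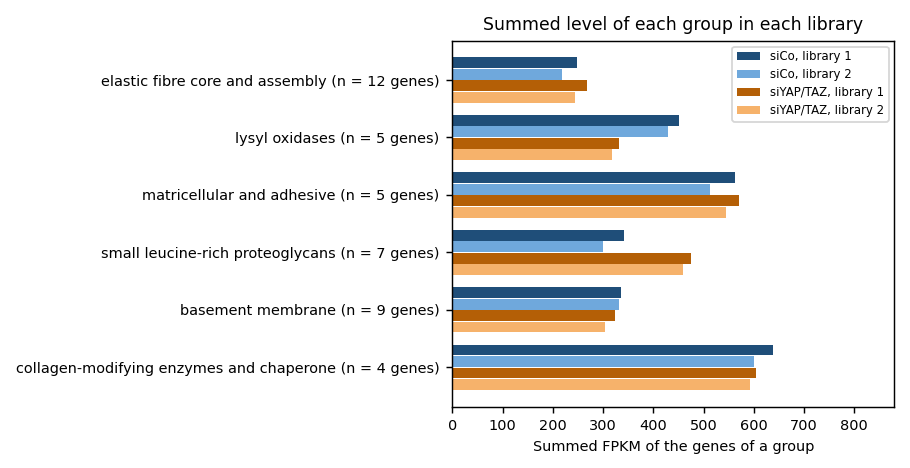
Summed FPKM of the genes of each role group in each library, with 1 bar for each library and the axis starting at 0. The lysyl oxidases fell to 0.736 of the siCo mean and the small leucine-rich proteoglycans rose to 1.46 of it. The basement membrane sum was 0.943 of the siCo mean, without overlap in FPKM as plotted. With FPKM scaled by TMM factors it was 0.9725 of the siCo mean, and the groups overlapped. The sums of the elastic fibre, matricellular and collagen enzyme groups overlapped between siCo and siYAP/TAZ.

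The collagen-modifying genes were led by Plod1. Plod1 encodes lysyl hydroxylase 1, which hydroxylates lysines in the collagen helix before lysyl oxidase acts. It rose from 21.3 and 19.5 FPKM to 40.5 FPKM in both siYAP/TAZ libraries, with the smallest adjusted p of the set (log2 fold change 1.03, SE 0.0477, edgeR adjusted p = 1.018e-13). Plod2, which hydroxylates the ends of the collagen chain, was at 18.4 and 20 FPKM against 18.1 and 18.3 FPKM, and was not called (log2 fold change -0.03, SE 0.0529, and 0.03 without siCo library 2). The pair was near equal in siCo cells, with a ratio of Plod1 to Plod2 of 1.16 and 0.975, and stood at 2.24 and 2.21 in siYAP/TAZ cells. P4ha2, a subunit of prolyl 4-hydroxylase, rose slightly, from 16.6 and 15.7 FPKM to 17.7 and 17.6 FPKM (log2 fold change 0.17, SE 0.0502, edgeR adjusted p = 0.006598, and 0.06706 with DESeq2). Serpinh1, encoding the collagen chaperone HSP47, was at 581 and 545 FPKM against 528 and 515 FPKM. Its siYAP/TAZ values were all lower but the difference did not pass the threshold (log2 fold change -0.07, SE 0.0409), except without siCo library 2 (-0.11, edgeR adjusted p = 0.003653) or with scaling by library totals (-0.11, 0.02649).

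Relatives within these families were set against each other inside each library, where scaling between libraries plays no part. Fbln5 and Eln, which are not relatives, were compared in the same way. Of 18 pairs listed, both genes were tested in 16, and in 13 of these the ratio did not overlap between siCo and siYAP/TAZ libraries. For single genes, 77.2% of all tested did not overlap, and the share over pairs of other genes was not computed, so the count is no sign of a property of these pairs. An exact permutation test of 2 against 2 libraries cannot go below p = 0.333, two-sided, which all 13 reached, and with Benjamini-Hochberg adjustment over the 16 pairs this was 0.410. This test can therefore pass no threshold of 0.05 here. The largest shift was in Fbln5 to Eln, 67.8 and 89.3 in siCo cells against 12.9 and 17.9 in siYAP/TAZ cells. It rests on the few counts of Eln, which entered the test only by being high in siYAP/TAZ cells. Among relatives the largest shift was in Mfap2 to Mfap5, with 1.77 on the log2 scale. Postn to Tgfbi with -1.32 and Lama4 to Lama2 with 1.27 came next. Fbln1 to Fbln2 went from 0.117 and 0.107 to 0.197 and 0.202, and Dcn to Bgn from 0.689 and 0.644 to 0.834 and 0.888. The pairs Fbn1 to Fbn2, Loxl2 to Loxl4 and Lama4 to Lama5 overlapped, each with an exact permutation p of 0.667.

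**Figure D4:**
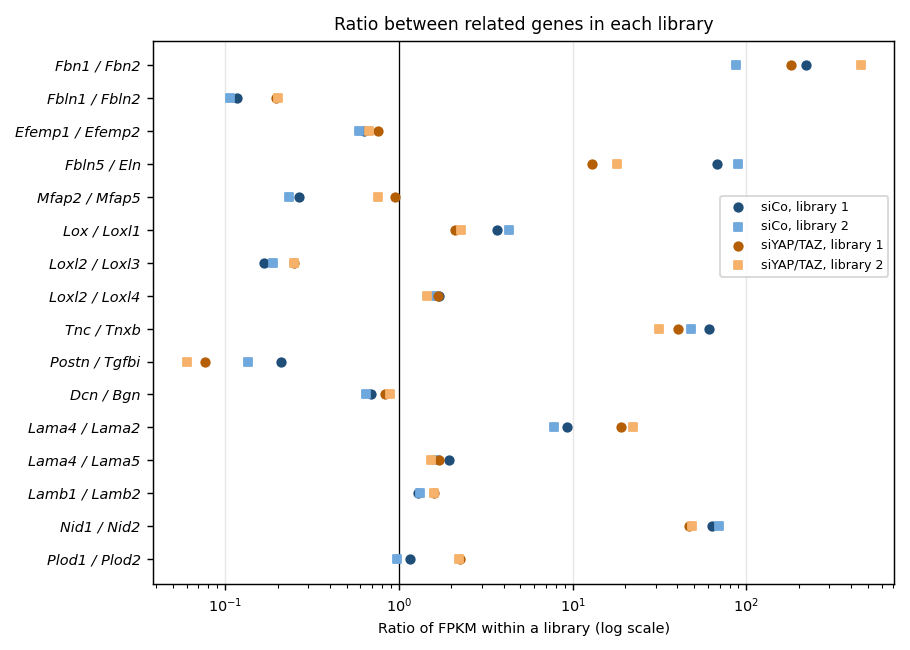
Ratio of FPKM between the genes of each pair within each library, on a log scale, for the 16 pairs in which both genes were tested. All pairs but Fbln5 to Eln are relatives. Circles are library 1 and squares library 2, blue for siCo and orange for siYAP/TAZ. In 13 pairs the groups do not overlap, and Mfap2 came near the level of Mfap5 only in siYAP/TAZ cells, at ratios of 0.95 and 0.756.

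The libraries of a group were not interchangeable for these genes. Of the 41 tested genes, 34 were higher in siCo library 1 than in siCo library 2, and 34 were higher in the first siYAP/TAZ library than in the second, by a median of 0.12 on the log2 scale in each case. Over all genes tested the shares were 49.8% and 50.6%. The matrix genes thus differed between replicates in a common direction, and 29 of them, or 70.7%, were higher in the first library of both groups, against 26.1% of all genes. The library numbers of siYAP/TAZ follow only the column order, and the replicate differences of the 2 groups had a correlation of 0.00774 over all genes, so the numbers were not used as pairs. The called gene closest to its difference between the siCo libraries was Fbn1. Its log2 fold change was 0.35 against a log2 FPKM difference of 0.34. With scaling by library totals, as FPKM has, its change was 0.30 and thus smaller than that difference. Hspg2 was as close to its difference between the siYAP/TAZ libraries, with a log2 fold change of -0.149 against 0.148.

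**Figure D5:**
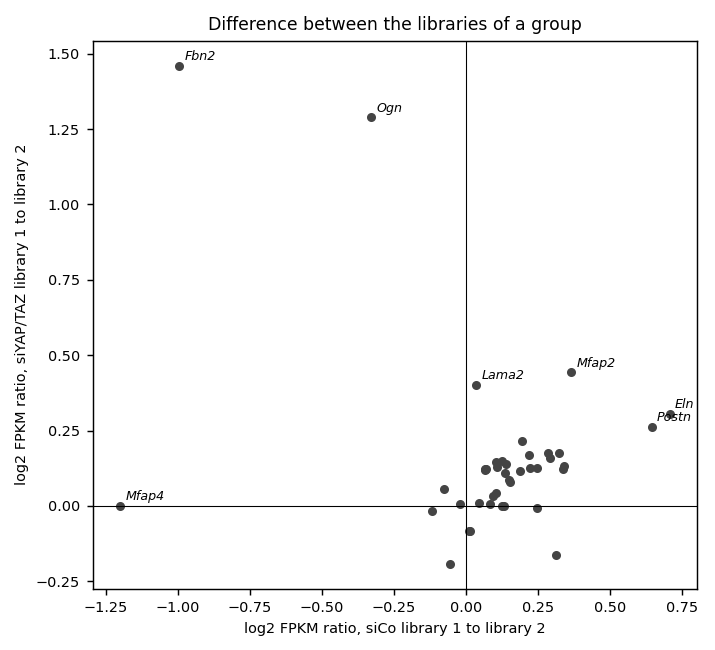
Log2 ratio of FPKM between library 1 and library 2 of siCo cells on the x axis and of siYAP/TAZ cells on the y axis, with 1 point for each of the 41 tested genes. Most points lie to the upper right of the origin, with 29 genes above 0 on both axes. The named points far from the origin, such as Fbn2, Mfap4 and Ogn, have few counts.

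Other genes of the same pathways were counted from a separate list of matrix genes outside the 43, of which 79 were found and 65 tested. Of these, 41 were higher, or 63.1%, 6 were lower, or 9.23%, and 18 were not called, with a median log2 fold change of 0.43, against 27.6% higher and 27.7% lower over all genes. By group, 8 of 12 genes listed with the elastic fibre, not all of them fibre components, and 10 of 18 matricellular genes were higher. So were 4 of 8 proteoglycans, 6 of 11 basement membrane genes and 13 of 16 collagen-modifying genes. These counts include Papln, with 1 and 5 counts in siCo and 31 and 23 in siYAP/TAZ libraries, and Egflam, with 7 and 13 against 16 and 29. Both reached the count minimum of 10 in both libraries only in siYAP/TAZ cells, where they were high. The list was chosen with earlier results of these data known, so its shares are no independent support. Genes named here are the called ones with the largest changes in each group that reached 5 FPKM.

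Among the genes listed with the elastic fibre, Emilin2 rose with its paralogue Emilin1, from 20.8 and 16.8 FPKM to 41.6 and 39.2 FPKM (log2 fold change 1.15, SE 0.0651). Mmrn2, an emilin family gene of endothelium, and Fam20c, a kinase of secreted proteins, rose by 1.25 (SE 0.0738) and 1.21 (SE 0.0545) on the log2 scale. The largest matricellular increase was that of Sparcl1, the nearest relative of Sparc, which itself was not called. Sparcl1 went from 6.1 and 4.38 FPKM to 33.2 and 29.9 FPKM, with more than 4-fold between the nearest values (log2 fold change 2.63, SE 0.0947, edgeR adjusted p = 2.037e-15). Ecm1, a secreted glycoprotein that binds perlecan, rose from 285 and 274 FPKM to 477 and 480 FPKM (0.82, SE 0.04), and Smoc2, of the Sparc family, rose by 0.67 (SE 0.048). Of the proteoglycans, Prg4, which encodes lubricin, rose from 18.3 and 14.3 FPKM to 54.2 and 47.4 FPKM (log2 fold change 1.68, SE 0.076), and Cspg4, encoding NG2, and Srpx2 rose by 0.61 (SE 0.0514) and 0.49 (SE 0.0699).

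Basement membrane relatives moved apart from each other. Ntn4, encoding netrin-4, which binds laminin gamma chains and disrupts laminin networks, fell from 20.4 and 19.6 FPKM to 5.37 and 5.38 FPKM (log2 fold change -1.85, SE 0.0702, edgeR adjusted p = 4.614e-15). Tinagl1, a secreted basement membrane protein, fell from 96.3 and 105 FPKM to 57 and 59.1 FPKM (log2 fold change -0.75, SE 0.0469). Agrn, encoding agrin, a heparan sulphate proteoglycan like perlecan, rose from 47.2 and 42.3 FPKM to 73.1 and 71.7 FPKM (log2 fold change 0.74, SE 0.047), whereas Hspg2 was slightly lower. Among genes that process collagen, Bmp1, the protease that trims procollagen and activates lysyl oxidase, rose by 0.90 (SE 0.0475), its enhancer Pcolce by 0.77 (SE 0.0489) and P3h4, a partner of lysyl hydroxylase 1, by 0.50 (SE 0.0614) on the log2 scale.

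Marker genes of other cell types moved alongside, while 27.6% of all genes tested were higher and 27.7% lower. All 5 tested of 6 genes listed as fibroblast markers were higher, their sum going from 64.6 and 64.8 FPKM to 108 and 108 FPKM. The sum rose mainly through Cd34, which went from 33.9 and 36.7 to 66.6 and 67.1 FPKM. Pdgfra went from 28.1 and 26.7 to 32.6 and 31.3 FPKM, while Dpt, Pi16 and Scara5 stayed under 7 FPKM and Clec3b had at most 5 counts. Dcn and Lum are themselves widely used as fibroblast genes. Of 9 smooth muscle markers, 5 were lower and 1 was higher, with summed levels of 207 and 212 FPKM in siCo cells and 107 and 103 FPKM in siYAP/TAZ cells. Pericyte markers went from 6.68 and 5.73 to 23.4 and 24.1 FPKM in sum, 2 of 4 tested being higher, mainly through Rgs5, with Higd1b at 0 counts. Of 6 endothelial markers, 4 were higher and 2 lower, and the sums were 92.1 and 91.1 FPKM against 97.9 and 102 FPKM. Of 7 macrophage markers 4 had no count and Ptprc had at most 2, and the only one called, Cd68, was higher, while the sum went from 8.22 and 8.56 to 11.1 and 14.1 FPKM. Of 5 chondrocyte markers, only Sox9 was tested, and it was higher, with Acan, Col2a1, Comp and Matn3 near 0. The part of these marker changes in the matrix results was not tested.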

How the data were processed

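Bulk RNA-seq of 2 siCo and 2 siYAP/TAZ libraries was used, and the 2 rat samples were not analysed here. Reads were trimmed with Trimmomatic and aligned to mm10 with HISAT2 by the authors, and uniquely mapped reads were counted per Ensembl gene with featureCounts. Versions, the Ensembl release and the strand setting are not stated. Without strand, reads of genes that overlap on opposite strands cannot be told apart. The table deposited by the authors holds raw counts together with FPKM rounded to 2 decimals. Dividing the deposited count by exonic length and library total gave the deposited FPKM of all 55573 genes in both siCo libraries within 0.005, and this formula gave the FPKM of all 4 libraries here. The 2 deposited FPKM columns of siYAP/TAZ were not used, and the 57 of 55630 rows that name no gene held 0 counts. Columns of siYAP/TAZ show the group but not the sample, so their numbers follow column order. Replicates were not duplicates (chi-square per gene 3.34 between siCo and 1.99 between siYAP/TAZ libraries).

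Counts were tested with edgeR 4.0.16 in R 4.3.3 (TMM factors of 0.984 to 1.017, filterByExpr with a minimum count of 10, quasi-likelihood test, Benjamini-Hochberg adjustment over all genes, threshold 0.05). Its spread rests mostly on the trend over genes, with 18.6 prior and 2 residual degrees of freedom. FPKM is not TMM-scaled, so ratios of FPKM and fitted fold changes differ slightly. Alternatives were DESeq2 1.42.0, library totals, no filter, a minimum count of 50, limma 3.58.1 on log2(FPKM + 1) and log2(FPKM + 0.1), leaving out each library, and a replicate block. The fits were tested on simulated data. Coordinates are those of the table and equal GENCODE M21 for all 43 genes, and promoter windows are from RefSeq on GRCm38.p6. All 43 genes are named by role, and of the related list up to 3 called genes per group with the largest change and at least 5 FPKM. The genes, lists and pairs were chosen with earlier results of these data known. Other steps used Python 3.11.15 with matplotlib 3.10.9, scipy 1.17.1 and pandas 2.3.3.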

Additional observations from a re-analysis of the deposited data

How the results depend on the processing

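Of the 23 higher genes, 17 kept their call under every alternative that gave a value, and Eln, Fbn1, Efemp1, Lamb1, Nid2 and P4ha2 did not. Of the 8 lower genes, 5 kept it, and Fbln2, Ogn and Hspg2 did not. The number of higher genes was 17 to 24 over all alternatives, and 21 to 24 when single libraries were left out. The number of lower genes was 6 to 11 over the others and 5 to 11 when single libraries were left out, the 5 being without siYAP/TAZ library 2. The related list gave 34 to 42 higher and 6 to 7 lower genes. The share of all genes called under each alternative was not computed, so whether shifts in these counts are particular to the matrix genes is not known. Signs turned for genes that were not called. Efemp2 was at -0.0054 with library totals, -0.0040 with limma at either pseudocount and between -0.0192 and 0.1005 when single libraries were left out. Sparc was at 0.0111 with a minimum count of 50. Leaving out single libraries gave -1.4921 to 0.0028 for Fbn2, -0.0933 to 0.0301 for Plod2, -0.0514 to 0.0479 for Sparc and -0.1934 to 0.0126 for the log2 ratio of Loxl2 to Loxl4. The cause of these shifts was not tested. Library totals moved the median of all genes to -0.0445, and Loxl3, Lamb2 and Serpinh1 then passed as lower while Nid2 no longer passed. Loxl3 also passed with no filter. When an arm was left with 1 library, edgeR took its spread from the other group and the trend over genes.

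With the library number as a replicate block, 24 genes were higher and 9 lower, since Loxl1 (0.11, adjusted p = 0.02511) and Loxl3 (-0.14, adjusted p = 0.002281) passed as well. The correlation of 0.00774 between replicate differences does not pair the libraries. Under about 50 counts per library, as for Eln, Mfap4, Fbn2 and Ogn, counting error limits what a difference can show.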
